A study of Homo sapiens with 12 samples.

Results

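The immediate early factors EGR1, EGR2 and EGR3, the serum response factor SRF and the co-repressors NAB1 and NAB2 were followed through an insulin time course in HepG2 cells. They are the 6 rows with these symbols among the 26364 genes of the count table, chosen by name with their pattern in these libraries already known, so their levels are given as a description. RNA-seq was available at 0, 5, 10, 30 and 240 min of insulin, with 2 replicates at each time and 10 libraries in all, and the ChIP-seq of the insulin receptor (IR) was 1 library. HepG2 is an established line from a human liver carcinoma and divides in culture, which limits it as a model of resting hepatocytes. All libraries share the parent line, growth in EMEM with serum, a change to EMEM alone and then EMEM with BSA, and the times come from the library titles. The study's methods describe physiologic or pathologic insulin in the EMEM with BSA, washed out before the acute dose, so 0 min need not be insulin-naive. No library without insulin was taken at the later times, so insulin and time since the change of medium cannot be told apart. The treatment text gives 3 nM insulin for 5 min for every RNA library, those at 0 min included, so the dose along the time course rests on that text alone. The ChIP library and its input are also listed with 3 nM insulin. The study's methods state that the RNA-seq was performed once with biologically independent samples, and the p-values below measure the spread between these samples.

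SRF is a DNA-binding protein that sits at CArG boxes in front of genes that respond within minutes to growth signals. With ternary complex factors of the ETS family, which are phosphorylated by ERK, it switches on immediate early genes, and with the actin-sensing MRTF factors it drives genes of the cytoskeleton. EGR1, EGR2 and EGR3 are zinc finger factors encoded by such immediate early genes, and their fingers recognise the GC-rich motif GCGNGGGCG. NAB1 and NAB2 bind EGR factors and restrain them, in part through the NuRD chromatin complex. Insulin is known to signal to ERK as well as to AKT in liver cells.

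Libraries held 18347109 to 45005769 reads on genes, with the deepest at 0 min replicate 2, and 1.59% to 2.36% of counts on ERCC spike-ins, highest at 10 min replicate 2. Of the 26364 genes 13852 passed edgeR's filter on low counts. All 6 genes passed, EGR2 with 3 libraries and EGR3 with 6 over the filter's level and the other genes with all 10. For EGR2 these were 30 min replicate 1 and both libraries at 240 min. Levels are given as CPM, gene reads scaled to library size after TMM normalization, and between genes only as TPM, which is also scaled for length. Hepatocyte markers were high in every library, with albumin (ALB) at 15796 to 22258 TPM and HNF4A at 186 to 264 TPM. Of the 10 markers of other cell types, PTPRC, the pan-leukocyte marker, was at 0 in all libraries, and CD3E had at most 1 count. CD68 at 48.7 to 60.3 TPM and ACTA2 at 60.4 to 95.8 TPM were present, and the other 6 stayed at or under 4.04 TPM.

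Per length, the 6 genes differed widely in abundance. NAB1 at 41.4 to 47.2 TPM and SRF at 40.5 to 56.2 TPM were the most abundant, followed by EGR1 at 11.5 to 46.3 TPM and NAB2 at 6.77 to 10.3 TPM. EGR3 at 0.0664 to 1.26 TPM and EGR2 at 0.129 to 0.413 TPM were near the limit of detection. The ratio of the highest to the lowest library in CPM was 17.4 for EGR3, 3.93 for EGR1, 3.17 for EGR2, 1.41 for NAB2, 1.39 for SRF and 1.14 for NAB1. The co-repressors and SRF were therefore both the most even of the 6 and, except for NAB2, the most abundant.

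**Figure D1:**
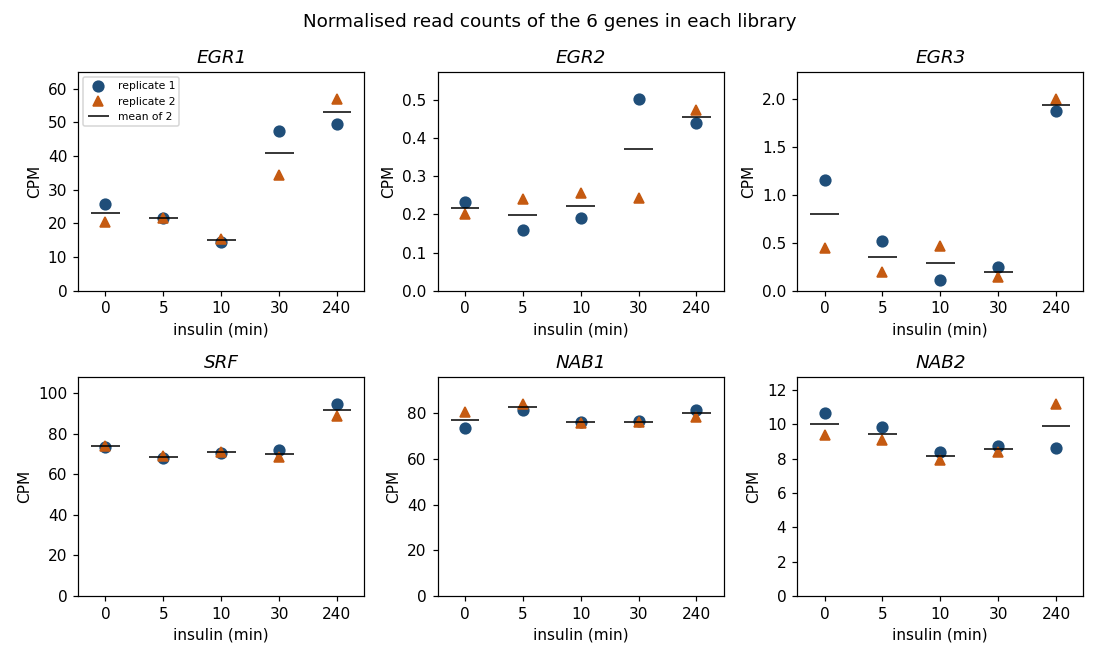
Normalised read counts (CPM, vertical axis starting at 0) of the 6 genes at each time of insulin in minutes (horizontal axis, evenly spaced categories), with 1 symbol per library and a bar at the mean of the 2 replicates. EGR1 is lowest at 10 min with 14.5 and 15.4 CPM and highest at 240 min with 49.5 and 56.9 CPM, EGR3 and SRF are highest at 240 min, and NAB1 stays between 73.7 and 83.9 CPM.

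EGR1, on hg19 chr5:137801181-137805004 (plus strand), had the clearest time course of the 6. It was measured at 25.8 and 20.5 CPM in the 2 replicates at 0 min, 21.6 and 21.6 CPM at 5 min, 14.5 and 15.4 CPM at 10 min, 47.5 and 34.3 CPM at 30 min, and 49.5 and 56.9 CPM at 240 min. The counts behind these values ran from 361 to 1322 reads per library. The order of the times was thus 10, 5, 0, 30 and 240 min from low to high, and only the neighbours 5 and 0 min overlapped. At 5 min the log2 fold change against 0 min was -0.07 (SE 0.13), and at 10 min both libraries lay below both at 0 min, by a log2 fold change of -0.61 (SE 0.13), a position shared by 19.1% of all genes. At 30 min EGR1 was 1.82-fold above 0 min (log2 fold change 0.86, SE 0.12) and 2.77-fold above 10 min (log2 fold change 1.47, SE 0.13). At 240 min it was 2.34-fold above 0 min (log2 fold change 1.22, SE 0.12) and still above 30 min by 0.36 on the log2 scale (SE 0.11), with both libraries above both. Because the libraries at 10 min were low, the difference between 30 and 10 min was larger than that between 30 and 0 min. The value at 30 min depends on the library, since the log2 fold change against 0 min ranged from 0.60 to 1.07 when 1 library was left out in turn.

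Of all 13852 genes tested, EGR1 was the only one past an adjusted p of 0.05 between 30 and 10 min in edgeR, where the background was 0.00722%. This is the value by which the gene was known beforehand, and nothing is read from it. The same contrast had 541 genes at an unadjusted p under 0.05, 4 past the threshold with DESeq2, 3 with limma on log2(TPM + 1) and 41 in edgeR without the filter on low counts. Against 0 min the background of calls was 0% at 5 min, 0.137% at 10 min, 0.332% at 30 min and 41% at 240 min, and between 240 and 30 min it was 38.2%. EGR1 was the 1 gene of the 6 called at 30 min, where 0.188% of genes were called higher. It missed the threshold there with ERCC scaling and with limma on log2(TPM + 1), with log2 fold changes of 0.71 and 0.81. At 10 min EGR1 was not among the genes called, but it was with ERCC scaling, at a log2 fold change of -0.96, without the filter on low counts, with only the 2 times compared, and when either library at 30 min was left out. The call between 240 and 30 min was lost with ERCC scaling and DESeq2, each at a log2 fold change of 0.37, with limma at 0.40 and 0.41, none of them below the 0.36 of the model reported, and also without 30 min replicate 2, where the log2 fold change was 0.16, and without 240 min replicate 2, where it was 0.26. ERCC scaling moved the median of all genes at 10 min by -0.33 on the log2 scale, so that the shift of EGR1 relative to that median is close to the value without it.

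The bases in front of the EGR1 start are shown because they carry CArG boxes, the kind of site through which SRF is known to act on this gene. Bases further upstream than the window below were not searched. A table of promoters from RefSeq (GRCh38.p14) held windows of 300 bases, 250 before and 50 after the start, for 5 of the 6 genes. In them matches on both strands were sought for the CArG box, for GCGNGGGCG and for CCGGAA, a form of the ETS core. Other forms of the ETS core were not sought. Also sought was the cyclic AMP response element TGACGTCA with the shorter TGACG, which lies within it. Positions are counted from the start site, with -1 the last base before it. The 250 bases before the EGR1 start, chr5:138465229-138465478 on the plus strand, are given 5′ to 3′ with the CArG boxes in capitals.
EGR1: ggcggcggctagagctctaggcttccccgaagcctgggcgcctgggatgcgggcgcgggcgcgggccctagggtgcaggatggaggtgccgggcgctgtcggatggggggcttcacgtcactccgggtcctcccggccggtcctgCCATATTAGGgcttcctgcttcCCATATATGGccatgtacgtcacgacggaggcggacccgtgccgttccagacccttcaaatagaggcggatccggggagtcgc
The CArG boxes lay at -105 to -96 and at -83 to -74, a GCGNGGGCG match at -198 to -190, and TGACG matches on the minus strand at -135 to -131 and at -66 to -62. Among the table's 35116 promoter windows, 1.29% held a CArG box, 9.43% GCGNGGGCG, 17.2% CCGGAA, 1.85% TGACGTCA and 24.6% TGACG. The window matched GRCh37, the sequence of hg19, at 1 place, chr5:137800918-137801217, and no exon of the GENCODE annotation overlapped the printed bases. A match describes the letters only and is not a measured binding site.

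EGR2, on hg19 chr10:64571756-64578927 (minus strand), is known from Schwann cells and lymphocytes and was barely detected here. Its replicates held 5 and 9 reads at 0 min, 4 and 5 reads at 5 min, 5 and 6 reads at 10 min, 14 and 5 reads at 30 min, and 11 and 9 reads at 240 min. Scaled for depth this was 0.232 and 0.202 CPM at 0 min, 0.503 and 0.243 CPM at 30 min, and 0.440 and 0.473 CPM at 240 min. Both libraries at 30 min and both at 240 min lay above both at 0 min, although at 30 min replicate 2 exceeded the higher library of 0 min by little. The log2 fold changes against 0 min were 0.87 (SE 0.48) at 30 min and 1.08 (SE 0.47) at 240 min, and neither was called. The 11 reads of 240 min replicate 1 had an exact Poisson interval (95%) of 5.49 to 19.7 reads, which shows how little depth stands behind each value of EGR2.

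RefSeq lists 3 starts of EGR2 in the table, and only the most downstream held a CArG box. It matched hg19 at chr10:64576077-64576376, where 1 exon of a longer EGR2 transcript overlaps the bases before the start and 3 GENCODE transcripts start within 10 bases. The 30 bases around the box, chr10:62816418-62816447 on the minus strand of GRCh38.p14, are shown for comparison with EGR1.
EGR2: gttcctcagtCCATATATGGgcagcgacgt
The box at -71 to -62 had the same letters as the second box of EGR1. TGACG matches flanked it at -110 to -106 and at -54 to -50, the latter on the minus strand as beside the second box of EGR1.

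EGR3, on chromosome 8, is itself induced by growth and antigen receptor signals in other cells. It had 25 and 20 reads at 0 min, 13 and 4 reads at 5 min, 3 and 11 reads at 10 min, 7 and 3 reads at 30 min, and 47 and 38 reads at 240 min. In CPM the libraries at 0 min stood at 1.16 and 0.449, a wide gap, those at 30 min at 0.251 and 0.146, and those at 240 min at 1.88 and 2.00. The 3 middle times overlapped one another, both libraries at 30 min lay below both at 0 min, and both at 240 min lay above every other library. Against 0 min the log2 fold change was -0.92 (SE 0.54) at 5 min, -1.29 (SE 0.56) at 10 min and -1.74 (SE 0.60) at 30 min, and none of these was called, except the last in a fit without the filter on low counts. At 240 min it was 1.46 (SE 0.38) against 0 min and 3.20 (SE 0.52) against 30 min. The value against 0 min rests on the uneven pair at 0 min, being 0.73 and no longer called without replicate 2, and 2.09 without replicate 1. With DESeq2 it was 1.32, and with limma on log2(TPM + 0.1) 1.21, neither of them called. At 30 min EGR1 thus stood above its values at 0 min and EGR3 below, a difference between the genes that was not tested.

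**Figure D2:**
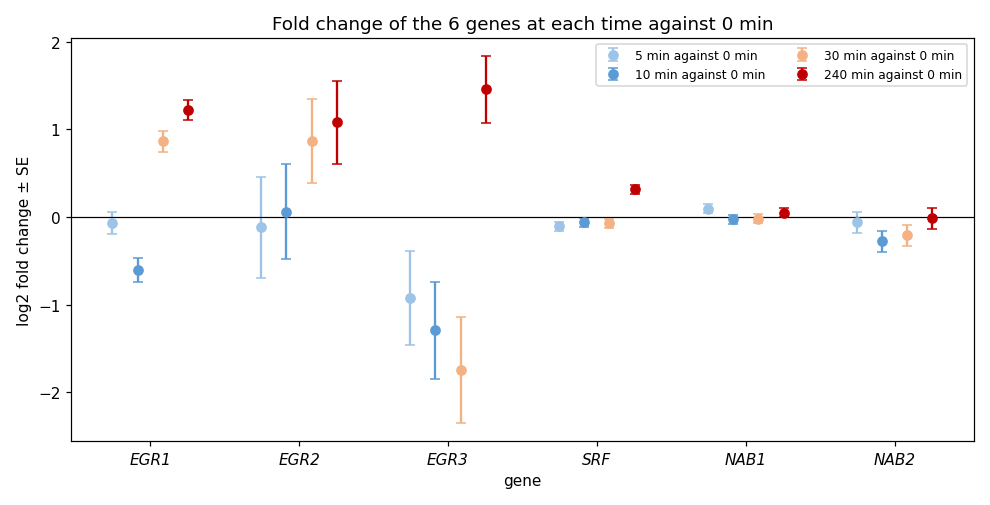
Log2 fold change of each gene (horizontal axis) against 0 min at 5, 10, 30 and 240 min, with the SE of edgeR's fit as error bars (vertical axis, log2 scale). At 30 min EGR1 stands at 0.86 and EGR3 at -1.74, at 240 min EGR1, EGR3 and SRF stand at 1.22, 1.46 and 0.31, and the points of NAB1 lie near 0.

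SRF, on hg19 chr6:43139033-43149244 (plus strand), was abundant and tightly measured. It stood at 73.6 and 73.8 CPM at 0 min, 68.0 and 69.2 CPM at 5 min, 70.5 and 71.0 CPM at 10 min, 72.0 and 68.3 CPM at 30 min, and 94.4 and 88.8 CPM at 240 min. The libraries at 5, 10 and 30 min all lay below those at 0 min, by log2 fold changes of -0.10, -0.06 and -0.07 (SE 0.05 each) that were not called, and 23.9% of all genes lay below 0 min in this way at 5 min. At 240 min SRF was 1.24-fold above 0 min (log2 fold change 0.31, SE 0.05) and 1.31-fold above 30 min (log2 fold change 0.38, SE 0.05), with both libraries above every other library. Its change at 240 min was thus far smaller than that of EGR1 or EGR3 on the log2 scale, but it was also the most precisely measured. With ERCC scaling the log2 fold change at 240 min was 0.20 and was not called, where the median of all genes moved by -0.12, and between 240 and 30 min it was 0.40, no smaller than with TMM, and was not called.

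The first of the 2 SRF starts in the table is shown because it carries CArG boxes of the gene's own factor. These are the 250 bases before it, chr6:43171019-43171268 on the plus strand of GRCh38.p14, with the CArG boxes in capitals.
SRF: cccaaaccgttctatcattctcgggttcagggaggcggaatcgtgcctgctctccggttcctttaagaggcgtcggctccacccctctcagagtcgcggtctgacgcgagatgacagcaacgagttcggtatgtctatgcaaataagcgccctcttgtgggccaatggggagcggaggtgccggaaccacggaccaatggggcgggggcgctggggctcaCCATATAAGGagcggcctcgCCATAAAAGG
The boxes lay at -30 to -21 and at -10 to -1, closer to the start than those in the EGR1 window. The same bases held a GCGNGGGCG match at -49 to -41 and a TGACG match at -149 to -145. The letters CCGGAA lay at -70 to -65, the only match of these letters in the windows of the 5 genes. The window matched hg19 at chr6:43138757-43139056, and no annotated exon overlapped the printed bases. No TGACGTCA was found in the windows of any of the 5 genes, and the other SRF window held none of the motifs.

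NAB1, on hg19 chr2:191513848-191557492 (plus strand), was level throughout. It stood at 73.7 and 80.6 CPM at 0 min, 81.6 and 83.9 CPM at 5 min, 76.4 and 75.8 CPM at 10 min, 76.7 and 76.2 CPM at 30 min, and 81.6 and 78.6 CPM at 240 min. Only at 5 min did both libraries lie above both at 0 min, with a log2 fold change of 0.09 (SE 0.05), a position that 24.5% of all genes shared. At 240 min the log2 fold change was 0.05 (SE 0.05). Both libraries at 240 min lay above both at 30 min, by a log2 fold change of 0.07 (SE 0.05), as did those of 33.7% of all genes. No comparison called NAB1.

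NAB2, on hg19 chr12:57482677-57489259 (plus strand), is known in other cells as a gene that EGR factors induce. It stood at 10.6 and 9.36 CPM at 0 min, 9.82 and 9.09 CPM at 5 min, 8.37 and 7.92 CPM at 10 min, 8.72 and 8.35 CPM at 30 min, and 8.64 and 11.1 CPM at 240 min. Both libraries at 10 min and both at 30 min lay below both at 0 min, by log2 fold changes of -0.28 (SE 0.12) and -0.21 (SE 0.12). At 30 min 19.8% of all genes were placed in that way. At 240 min the 2 libraries stood apart, the first below and the second above both at 0 min, and the log2 fold change was -0.01 (SE 0.12). No comparison called NAB2, except that between 240 and 30 min when 240 min replicate 1 was left out (log2 fold change 0.38), and with 172 to 417 reads per library it was measured with less precision than NAB1.

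EGR motifs, not CArG boxes, were found in the windows of the co-repressors. NAB1 had 3 listed starts, the first of which held 3 matches of GCGNGGGCG and the second 4, with 3 of them at the same genomic places, while NAB2 held 1. The stretches of 30 bases are shown with the matches in capitals, from the plus strand of GRCh38.p14 at chr2:190648843-190648872, chr2:190648898-190648927 and chr12:57089042-57089071.
NAB1, overlapping pair: gcccagcggcCGCCCCCGCCCCCGCccggc
NAB1, single match: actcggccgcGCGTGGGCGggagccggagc
NAB2: tgtgcgtcctGCGGGGGCGgaggcgcggag
In the first stretch a pair of matches on the minus strand overlaps, at -42 to -34 and at -36 to -28 from the first start, and they appear as their complement. The single NAB1 match lay at 14 to 22, past the first start, and the NAB2 match at -62 to -54, in a window where 2 annotated NAB2 exons overlap the bases before the start. With EGR1, SRF and the second EGR2 start, all 5 genes with a window held GCGNGGGCG in at least 1. Of all windows 9.43% held it, but that share counts windows and not genes, and EGR2, SRF and NAB1 had several windows each. The share over all genes was not computed, so the count of genes has no like background.

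**Figure D3:**
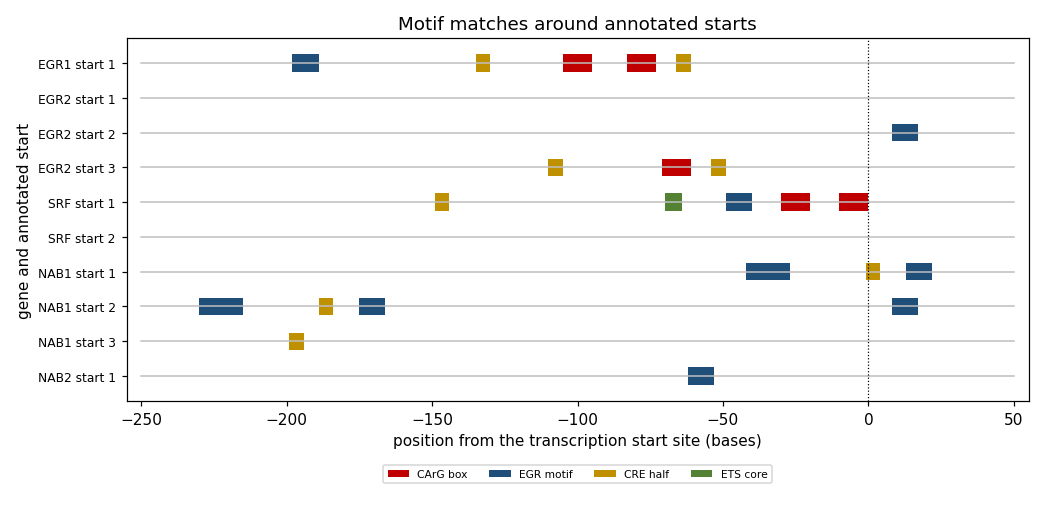
Matches of the motifs in the promoter windows of 5 genes, each line an annotated start from RefSeq and the horizontal axis the position from that start in bases, with bars as long as the match. CArG boxes are seen before the EGR1 start, 1 of the 3 EGR2 starts and 1 of the 2 SRF starts. EGR motifs are seen in at least 1 window of each of the 5 genes.

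Counted together, 3 of the 6 genes, EGR1, EGR3 and SRF, were called at 240 min against 0 min, all higher, where 20.6% of all genes were called higher. The same 3 were called between 240 and 30 min, where 19.8% of all genes were called higher, and both comparisons share the libraries at 240 min. Without a test, 4 of the 6 (EGR1, EGR2, EGR3 and SRF) had both libraries at 240 min above both at 0 min, against 34.8% of all genes. A different 4 of the 6 (EGR1, EGR3, SRF and NAB1) had both above both at 30 min, against 33.7%. At 30 min the 2 placed in this way above 0 min, EGR1 and EGR2, stood against 18.5% of all genes, and the 3 placed below, EGR3, SRF and NAB2, against 19.8%. EGR2 passed the filter only through libraries at 30 and 240 min, so its place above 0 min at both times was favoured by the filter and supports nothing. With ERCC scaling fewer genes were called at 240 min against 0 min, 1059 with 331 of them higher, against 5676 with 2847 higher under TMM.

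The known targets of SRF and of EGR factors are the readout next to these genes. Lists of 12 immediate early targets of SRF, 16 cytoskeletal targets of SRF and 17 targets of EGR factors were written by hand from general knowledge, and 10, 16 and 15 of them were tested. These lists, and those of the ERK route and NuRD below, were chosen with earlier results of these data known. Their counts and p-values are therefore a description and not independent support. EGR4, ARC, FLT1 and CD44 had at most 9 reads in any library and were not. EGR1, EGR2, EGR3 and SRF themselves were kept out of the lists.

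Among the SRF immediate early targets, FOS, a subunit of the AP-1 factor, was higher at 30 min (log2 fold change 1.40, SE 0.27, adjusted p = 0.0218 in edgeR), the only one of 10 called there. It stood at 2.55 and 1.15 CPM at 0 min, 1.41 and 2.26 CPM at 10 min, 4.45 and 4.32 CPM at 30 min, and 4.68 and 3.89 CPM at 240 min, so it shared with EGR1 a higher level at both late times but not the lower one at 10 min. Leaving out 0 min replicate 2 gave a log2 fold change of 0.78 at 30 min, and leaving out 0 min replicate 1 gave 1.94. The call was lost without 0 min replicate 2, without either library at 30 min and with limma. The median log2 fold change of the 10 was 0.04 at 30 min and -0.17 at 10 min, against medians of all genes near 0.

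At 240 min 7 of the 10 were higher and 1 was lower, where 41% of all genes were called and 20.6% called higher. The median log2 fold change of the 10 was 0.73 against -0.00257 over all genes. NR4A1, an orphan nuclear receptor, was higher by a log2 fold change of 0.88 (SE 0.14, adjusted p = 4.22e-05 in edgeR). ZFP36, which speeds the decay of AU-rich messages, was higher by 0.86 on the log2 scale (SE 0.13, adjusted p = 3.1e-05 in edgeR), FOSL1, another AP-1 subunit, by 0.85 (SE 0.15, adjusted p = 0.000137 in edgeR), and the matricellular protein gene CYR61 by 0.61 (SE 0.08, adjusted p = 1.2e-05 in edgeR). CTGF, the relative of CYR61, was the 1 called lower, by a log2 fold change of -0.26 (SE 0.06, adjusted p = 0.000911 in edgeR). It is named outside the rule because it alone of the 10 was called in that direction. NR4A1, ZFP36 and FOSL1 were called under all 21 alternatives, and CYR61 under all but ERCC scaling. Between 240 and 30 min 6 of the 10 were higher and none lower, where 38.2% of all genes were called and 19.8% called higher. NR4A1 changed most (log2 fold change 1.36, SE 0.15, adjusted p = 8.64e-07 in edgeR).

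The cytoskeletal targets of SRF were split. None of the 16 was called at 5, 10 or 30 min, where 0%, 0.137% and 0.332% of all genes were. At 240 min 4 were higher and 4 lower (50% of the 16, where 41% of all genes were called), with a median log2 fold change of -0.06. ACTB, cytoplasmic actin, and the tropomyosin gene TPM1 were higher by 0.25 (SE 0.06, adjusted p = 0.00467 in edgeR) and 0.22 (SE 0.06, adjusted p = 0.005 in edgeR) on the log2 scale. The smooth muscle actin gene ACTA2 and TPM2 were lower, by log2 fold changes of -0.30 (SE 0.07, adjusted p = 0.00215 in edgeR) and -0.72 (SE 0.14, adjusted p = 0.000293 in edgeR). Of these, TPM2 was called under all 21 alternatives, while ACTB, TPM1 and ACTA2 lost their calls with ERCC scaling and without 0 min replicate 2, and ACTA2 also in the 3 limma fits.

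EGR target genes were also split, with 4 of the 15 higher and 4 lower at 240 min (53.3%, where 41% of all genes were called) and a median log2 fold change of -0.08. F3, the gene of tissue factor, which starts coagulation, was higher by 1.13 on the log2 scale (SE 0.10, adjusted p = 5.18e-08 in edgeR), from 6.57 CPM on average at 0 min to 14.5 CPM at 240 min. PDGFA, a platelet-derived growth factor chain, was higher by 0.93 (SE 0.14, adjusted p = 3.69e-05 in edgeR), and both were called under all 21 alternatives. The phosphatase gene PTPN1, whose product acts on the IR, was higher by 0.41 (SE 0.05, adjusted p = 1.76e-06 in edgeR), and the adhesion molecule gene ICAM1 was lower, by a log2 fold change of -0.32 (SE 0.05, adjusted p = 3.19e-05 in edgeR). Both lost their calls with ERCC scaling. At 10 min GDF15, a stress hormone gene, was the 1 of 15 called (log2 fold change -0.41, SE 0.07, adjusted p = 0.0183 in edgeR), and at 30 min ICAM1 was (log2 fold change -0.24, SE 0.05, adjusted p = 0.0345 in edgeR). The GDF15 call was lost in 8 of 21 alternatives and the ICAM1 call at 30 min in 11 of 21, among them each fit without a library at 0 min.

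**Figure D4:**
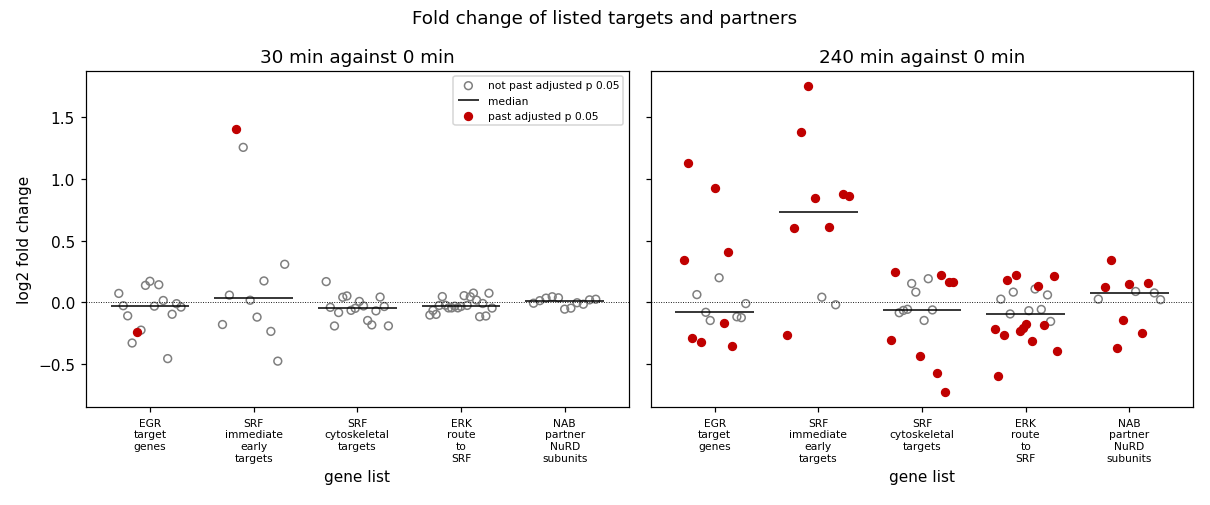
Log2 fold change against 0 min (vertical axis) of each tested gene of 5 lists (horizontal axis) at 30 min and at 240 min, with filled symbols for genes past an adjusted p of 0.05 in edgeR and a bar at the list's median. At 30 min FOS at 1.40 and ICAM1 at -0.24 are the only filled symbols, and at 240 min the SRF immediate early targets have a median of 0.73 while the medians of the other lists lie between -0.09 and 0.08.

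Upstream and beside the 6 genes, the messages of the route from RAS through ERK to SRF and of the NuRD subunits that NAB proteins recruit were examined. None of the 21 route genes and none of the 11 NuRD genes was called at 5, 10 or 30 min. Of all genes 0%, 0.137% and 0.332% were called at these times, so none called is no result about these lists. At 240 min 4 route genes were higher and 9 lower (61.9%, where 41% of all genes were called). The kinase gene BRAF was lower by a log2 fold change of -0.60 (SE 0.09, adjusted p = 2.43e-05 in edgeR), as was the exchange factor gene SOS2 (log2 fold change -0.40, SE 0.07, adjusted p = 9.74e-05 in edgeR), while its relative SOS1 was higher by 0.21 (SE 0.05, adjusted p = 0.00145 in edgeR). MKL1, an MRTF that carries the actin signal to SRF, was lower by a log2 fold change of -0.31 (SE 0.08, adjusted p = 0.00289 in edgeR). MKL2, another MRTF in the list, is named outside the rule because it did not share this fall. Its log2 fold change at 240 min was 0.11 (SE 0.06), and it was not called. Of the NuRD genes 4 were higher and 3 lower (63.6%, against the same 41%), with GATAD2A higher by 0.34 (SE 0.05, adjusted p = 3.27e-05 in edgeR) and its paralogue GATAD2B lower by a log2 fold change of -0.37 (SE 0.06, adjusted p = 7.41e-05 in edgeR). With ERCC scaling BRAF kept its call and SOS1, SOS2, MKL1, GATAD2A and GATAD2B did not, and MKL1 also lost its call with limma on log2(TPM + 1) and log2(TPM + 0.1) over all genes.

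The genes most like each of the 6 were sought by Pearson's r of log2 CPM over the 10 libraries, among the genes whose mean was 1 CPM or more. The points share 5 times and their depth, and the libraries at 240 min set many genes apart, so r is a description. The genes named are the highest of 12337 or 12338 compared. EGR2 held 4 to 14 reads per library and EGR3 3 to 47, so little depth stands behind any r of these genes. EGR1 was most like TBRG1 (r = 0.917), CXorf40B (0.911), APOBEC3G (0.898), SARM1 (0.891) and RABL2B (0.886). EGR3 was most like BHLHE40, a transcriptional repressor of the clock and of hypoxic cells (r = 0.980), ZNF593 (0.956) and the hexokinase gene HK2 (0.952). SRF was most like GLYCTK (0.985), EMC8 (0.985) and the translation initiation scaffold gene EIF4G1 (0.984). For EGR2 the nearest were METTL21B (0.966), RABL2B (0.912) and SLC6A8 (0.900), for NAB1 ZNF226 (0.946), PCF11 (0.939) and ZNF253 (0.912), and for NAB2 NME3 (0.916), PHF23 (0.906) and TTI2 (0.899). Among the 6 themselves r was highest for EGR1 with EGR2 (0.851) and EGR3 with SRF (0.825), lower for EGR1 with SRF (0.671) and EGR1 with EGR3 (0.529), and between -0.04 and 0.20 for NAB1 with any other. RABL2B, likest after 1 other gene to EGR2, was also among the 5 nearest to EGR1.

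IR occupancy is a measurement that played no part in choosing the genes. The peak list, from 1 library without a replicate, held 1971 peaks with scores of 13 to 14106 and a median of 79. None of the 6 genes had an IR peak in its body extended by 5 kb, where 15.7% of the 13852 tested genes had one. The annotation by HOMER named none of the 6 as the nearest gene to a peak, against 8.58% of tested genes. EGR2 had the nearest peak, 7.20 kb from its body at chr10:64564096-64564555 in hg19, with a score of 197 and rank 520, which HOMER placed at the promoter of ADO. With an extension of 20 kb EGR2 was thus the 1 gene with a peak, against 21.3% of tested genes. The other nearest peaks lay 32.2 kb from NAB2, 65.4 kb from SRF, 112 kb from EGR1, 114 kb from NAB1 and 1346 kb from EGR3. The peak nearest to SRF ranked 67 by score and lay at the promoter of TTBK1, and the others ranked between 752 and 1875. With 6 genes, 0 with a peak cannot be told apart from that share, and a peak below the caller's threshold was not detectable.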

How the data were processed

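RNA-seq of HepG2 cells was available as 10 libraries, with the IR ChIP-seq and its input, the latter not analysed here. Per the labels and the study's methods the authors trimmed reads with Trim Galore 0.6.4, aligned them to hg19 with STAR 2.6.1d and deposited raw counts per gene from featureCounts 1.6.4, reverse-stranded, with duplicates marked. They also deposited gene abundances from StringTie as TPM, and a peak table from BWA 0.7.17-r1188 and MACS2 2.2.7.1 annotated by HOMER, whose peak score is the measure used. The deposited protocol texts appear exchanged between the assays, so kit and read length were taken from the study's methods. The 92 spike-in rows entered neither library sizes nor tests.

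Counts were fitted with edgeR 4.0.16 in R 4.3.3 (TMM, filterByExpr, quasi-likelihood test, 10 libraries in 1 model with time as the only term), with Benjamini-Hochberg adjustment over 13852 genes and calls at an adjusted p under 0.05. The SE follows from the F statistic and the estimated change. Intervals of counts are exact Poisson and cover counting error only. Replicates were not copies of one library (chi-square per degree of freedom 2.75 to 6.13). The 6 genes, the lists and the comparisons were chosen with earlier results of these data known. Named besides the 6 genes are at most 4 called genes per list and comparison with the smallest adjusted p, and the genes most correlated with each of the 6, with log2 CPM computed at a prior count of 2. Genes outside this rule are said to be so. Alternatives were DESeq2 1.42.0, limma 3.58.1 on TPM with a pseudocount of 1 or of 0.1 before log2, RLE, upper-quartile and ERCC scaling, other filters, only the 2 times compared, a replicate block and leaving out each library. The edgeR fit was tested on simulated data. Peaks and motifs were handled in Python 3.11.15, and figures were drawn with matplotlib 3.10.9.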

Additional observations from a re-analysis of the deposited data

How the results depend on the processing

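Depth limited EGR2 and EGR3, whose libraries held 47 reads or fewer on either gene, and with 2 libraries per time single libraries move a value. Without a 0 min library the log2 fold change of EGR3 at 240 min against 0 min ranged from 0.73 to 2.09. For EGR1, leaving out 1 library gave 0.60 to 1.07 at 30 min against 0 min, 1.20 to 1.67 against 10 min and 1.04 to 1.37 at 240 min, and for SRF 0.27 to 0.35 at 240 min. Calls of these values were lost for EGR1 at 30 min against 0 min with ERCC scaling (0.71) and with limma (0.81 on log2(TPM + 1), also over genes averaging 1 TPM or more, and 0.84 on log2(TPM + 0.1)), for EGR3 at 240 min with DESeq2 (1.32), with limma on log2(TPM + 0.1) (1.21) and without 0 min replicate 2 (0.73), and for SRF at 240 min with ERCC scaling (0.20). No value of the 6 genes that was called changed its sign in any alternative.

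Leaving out 1 library, 0 to 22 genes were called at 5 min against 0 min, 9 to 24 at 10 min, 18 to 53 at 30 min, 3893 to 5785 at 240 min, 1 to 3 at 30 min against 10 min and 3947 to 5318 at 240 min against 30 min. Genes of the 5 lists called then numbered 0 to 1 at 10 min, 0 to 5 at 30 min, 27 to 45 at 240 min and 23 to 37 at 240 min against 30 min, against 1, 2, 44 and 36 with all libraries. The lowest counts at 240 min came without 0 min replicate 2 (27) and, against 30 min, without 30 min replicate 1 (23). The most at 5 min came without 5 min replicate 1 (22), while the other fits without a library gave 0 to 2.

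With ERCC scaling 2, 4, 1059, 5 and 917 genes were called at 5, 30 and 240 min against 0 min, at 30 min against 10 min and at 240 min against 30 min, where TMM gave 0, 46, 5676, 1 and 5297. In the last of these 573 of 917 were higher, against 2743 of 5297, and at 10 min 0 of 20 were, against 6 of 19. List genes called with it were 0 at 10 min, 1 at 30 min, 9 at 240 min, 2 at 30 min against 10 min and 6 at 240 min against 30 min. Without the filter on low counts 144, 74, 160 and 41 genes were called at 5, 10 and 30 min against 0 min and at 30 min against 10 min, and 3, 3, 8 and 2 list genes. DESeq2 called 4 genes at 30 min against 10 min and 2 list genes at 10 min. With only the 2 times compared 1, 40 and 2 genes were called at 5 and 10 min and at 30 min against 10 min, and 2 list genes at 10 min. limma on log2(TPM + 1) called 1, 1, 9 and 3 genes at 5, 10 and 30 min and at 30 min against 10 min, 1, 1, 8 and 3 over genes averaging 1 TPM or more, and 1, 4, 8 and 3 on log2(TPM + 0.1), with 0 list genes at 10 and at 30 min in all 3. The replicate numbers did not pair the libraries (correlation of deviations -0.12 to 0.13 over 10 pairs of times), and a replicate block gave 1 gene at 5 min and 3 at 30 min against 10 min, with no other count moved beyond 1.5 times. At an extension of 20 kb 1 of the 6 genes had an IR peak. The cause of these shifts was not tested.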
